A study of Mus musculus with 48 samples.

Results

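Mice of the line pL2_Dclk_Notch2fl_fl, called Dclk Notch2fl here, were compared with mice of genotype pl2, called pL2. The comparison used 3 arrays of each group, so 6 of the 48 arrays of the series, and both groups came from the MRI facility and ate chow. The 3 Dclk Notch2fl mice were 12, 11 and 10 months old and had received tamoxifen at 6, 5 and 5 months. The 3 pL2 mice were 12 months old, and the labels give no tamoxifen age for them. The arrays were taken by these labels. All 6 mice carried pL2, a transgene that makes interleukin-1 beta in squamous epithelium of the oesophagus and forestomach, and the study used it as a model of Barrett oesophagus. Both Notch2 alleles were labelled as floxed in the line, so that a recombinase can remove part of the gene in cells marked by Dclk1, which the study calls post-mitotic tuft cells. Whole tissue of the squamocolumnar junction and cardia was measured, so fewer cells of a type and less RNA per cell cannot be told apart, and rare cells such as tuft cells give little of the RNA.

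Notch2 is a receptor that is cut after it binds a ligand of the Jagged or Delta family on a neighbouring cell. Its inner part then enters the nucleus, joins the DNA-binding protein Rbpj and turns on genes of the Hes and Hey families. In the gut lining, Notch holds back secretory fates, and in squamous epithelium it takes part in the step from dividing basal cells to layers that cornify. Tuft cells are rare chemosensory cells that carry Dclk1, the channel Trpm5 and the factor Pou2f3.

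Values are log2 signals of Affymetrix probe sets, with 1 probe set per gene, and a difference of 1 is a 2-fold change. Differences are Dclk Notch2fl minus pL2 with the standard error of 1 limma model over all 48 arrays, and a gene was called when its adjusted p, over 15242 genes tested, was below 0.05. The 39 genes called (0.256% of those tested) comprised 26 that were higher (0.171%) and 13 that were lower (0.0853%) in Dclk Notch2fl, while 1980 genes had an unadjusted p below 0.05. Of the 26, 18 were at least 2-fold higher, and of the 13, 12 were at least 2-fold lower. The median difference over all genes tested was 0.01. In each of the 39 the groups did not overlap. Of all genes tested, 11.0% had all 3 Dclk Notch2fl arrays above all 3 pL2 arrays and 8.99% had all 3 below. The plot of called genes gives every difference.

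**Figure D1:**
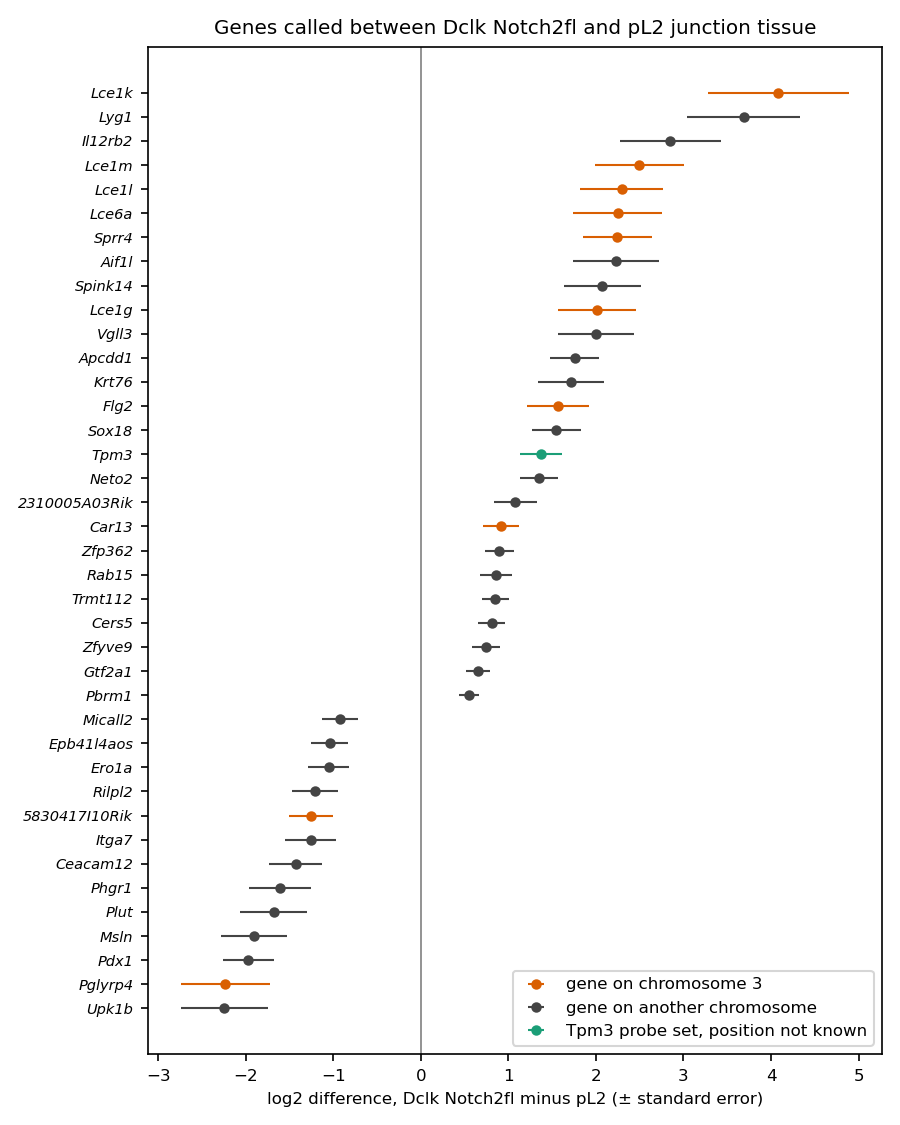
Log2 difference (x axis, Dclk Notch2fl minus pL2, with standard error bars) for the 39 called genes, ordered by size, with genes of chromosome 3 in orange and the Tpm3 probe set in green. Lce1k is the largest increase at 4.08, and Upk1b the largest decrease at -2.24.

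The count depended on the pL2 arrays. It was 3 against the pL2 mice on chow from the Freising facility (5830417I10Rik lower, Sprr4 and the probe set named Tpm3 higher, all within the 39) and 4 against the mean of both pL2 groups, where Lyg1 was added. Of the 39 differences, 10 were at least 50% as large against the Freising pL2 mice, 25 were smaller with the same sign and 4 turned sign. By the labels, the Freising pL2 mice were of the same age as pL2 and also had no tamoxifen age. Their title series was neither that of pL2 nor that of Dclk Notch2fl. The comparison with them therefore also differed in facility, title series and tamoxifen label, and in age for Dclk Notch2fl replicates 2 and 3. The part of these differences was not tested. The count against pL2 was 240 without pL2 replicate 1, 6 without pL2 replicate 2 and 14 without pL2 replicate 3. Without Dclk Notch2fl replicate 1, 2 or 3 it was 10, 10 and 23. When only the 6 compared arrays were fitted, Lyg1 alone was called.

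The groups also differed in what the labels do not give. Xist, the transcript of the inactive X chromosome, had 10.99, 11.82 and 11.67 in Dclk Notch2fl, against 12.17, 4.92 and 3.83 in pL2. The Y-linked genes Eif2s3y, Kdm5d and Uty were between 6.94 and 8.14 in pL2 replicates 2 and 3 and at most 3.59 in the other 4 arrays. The mean of 10 hepatocyte genes was 4.84, 4.56 and 4.56 in Dclk Notch2fl, against 6.92, 5.88 and 8.37 in pL2, and all 10 had a negative difference with none called. The mean of 19 enterocyte genes was 8.62, 5.89 and 6.17 in Dclk Notch2fl, against 6.33, 6.64 and 6.98 in pL2. When the 10 arrays of the series whose mean over hepatocyte genes or over enterocyte genes exceeded 8 were dropped, among them Dclk Notch2fl replicate 1 and pL2 replicate 3, 10 genes were called, 7 of them among the 39. Among arrays with high Xist, of which pL2 had 1, no gene was called and 1050 had an unadjusted p below 0.05. The part of these differences in the results below was not tested beyond such refits. Tamoxifen, the title series of the samples, the Dclk1 driver and the floxed alleles cannot be told apart. Every Dclk Notch2fl array had a tamoxifen age, one title series, and the driver and floxed alleles in its genotype. The pL2 arrays had no tamoxifen age in the labels, another title series, and neither driver nor floxed alleles in their genotype.

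Transcripts of the targeted receptor were described first. Notch2 had 9.08, 8.82 and 8.88 in Dclk Notch2fl, against 8.98, 8.66 and 8.76 in pL2. The groups overlapped, with a difference of 0.13 ± 0.22 (limma adjusted p = 0.852). Where its probes lie is not known, so this value checks neither the allele nor the loss of the receptor, and tuft cells are few in whole tissue. Dclk1 itself had 6.68, 6.95 and 6.23 in Dclk Notch2fl, against 6.44, 5.75 and 6.21 in pL2. Its difference of 0.49 ± 0.22 did not pass (limma adjusted p = 0.338). The related receptor Notch1 had 8.40, 8.54 and 8.02 in Dclk Notch2fl, against 8.21, 7.68 and 7.75 in pL2, with overlapping groups and a difference of 0.44 ± 0.22 (limma adjusted p = 0.403).

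No Notch receptor or ligand gene was called among 10 tested, with a median difference of 0.17. The difference of Notch4, a receptor of vessel cells, was -0.79 ± 0.22 (limma adjusted p = 0.108). Its ligand gene Dll4 was at -0.64 ± 0.25, and for both genes all 3 Dclk Notch2fl arrays lay below all 3 pL2 arrays. Dlk2, a Delta-like protein, was at 1.00 ± 0.38, again without overlap. None of 24 genes for cleaving, glycosylating or relaying the receptors was called either (median 0.10). Rbpj was at 0.17 ± 0.18 and the receptor protease gene Adam10 at -0.33 ± 0.19.

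None of 17 known Notch target genes was called, with a median of 0.14. Without pL2 replicate 1, 1 target gene and 1 of the receptor and ligand genes were called, beside 240 over all genes. Hes1, a well known target in the gut, had 7.993, 7.985 and 7.997 in Dclk Notch2fl, against 7.566, 7.984 and 8.001 in pL2. The 3 Dclk Notch2fl arrays were nearly equal, and the groups overlapped, at 0.14 ± 0.19 (limma adjusted p = 0.800). Hey1 was at 0.20 ± 0.33 and Heyl at 0.08 ± 0.32. Snai2, a repressor found in basal squamous cells and stroma, had 8.86, 8.92 and 8.44 in Dclk Notch2fl, against 8.05, 7.41 and 7.08 in pL2. It came closest in that list, at 1.22 ± 0.29 (limma adjusted p = 0.0552). Genes for secretory fates, which Notch holds back, gave no call among 9 tested and a median of -0.20.

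Among tuft cell genes 0 of 18 tested were called, with a median of 0.24 and 4 at an unadjusted p below 0.05. Of all 15242 genes tested, 1980 had such a p. Pou2f3, the factor that tuft cells require, had 6.79, 5.41 and 5.27 in Dclk Notch2fl, against 4.15, 4.70 and 5.20 in pL2. Replicate 1 was the highest, and the 2 groups met closely at their edges, with a difference of 1.14 ± 0.48 (limma adjusted p = 0.296). Trpm5 overlapped between the groups, at 0.20 ± 0.35. The list mean was 5.77, 5.68 and 5.43 in Dclk Notch2fl, against 5.33, 5.36 and 5.62 in pL2. Dclk Notch2fl had the highest group mean of this list among the 16 groups, and its arrays overlapped with those of pL2. That mean was 5.63, beside at most 5.59 in the 14 groups other than Dclk Notch2fl and pL2. The line Dclk Notch1fl, described below, had 5.49, 5.79 and 5.50, and its replicate 2 was above every Dclk Notch2fl array. Lgr5, a marker of columnar stem cells, was at 1.24 ± 0.47 (limma adjusted p = 0.249), and none of 14 stem cell genes was called.

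The most numerous group among the called genes encoded proteins of the cornified layer. Late cornified envelope (Lce) proteins are cross-linked to one another beneath the membrane of the outermost squamous cells. Lce1k had 6.93, 5.41 and 5.54 in Dclk Notch2fl, against 2.09, 1.69 and 1.85 in pL2. All Dclk Notch2fl arrays were far above pL2, whose values lay under the lowest array median of 4.03. The difference was 4.08 ± 0.80 (limma adjusted p = 0.0162). No fold is given for genes whose signals in 1 group lay under the array medians, since these signals may not be above background. Lce1m had 7.39, 6.62 and 6.55 in Dclk Notch2fl, against 4.82, 4.60 and 3.65 in pL2, and rose by 2.49 ± 0.51. A second Lce1m probe set, with nearly the same mean over all arrays (5.50 beside 5.51), gave 4.06. Lce1l (2.29 ± 0.47), Lce6a (2.25 ± 0.51) and Lce1g (2.01 ± 0.45) were also called higher, without overlap between the groups.

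The whole Lce family, gathered by symbol after its members had been seen among the calls, held 18 measured genes. Of these 17 were tested and 5 called, all higher. In all 17 tested members every Dclk Notch2fl array lay above every pL2 array (11.0% of all genes tested), and differences ran over 2.01 to 4.12 with a median of 2.49. Lce1e, with the largest difference of 4.12 ± 1.20, was not called (limma adjusted p = 0.124), nor was Lce1b at 3.65 ± 1.03 (limma adjusted p = 0.112). Lce1i did not pass the filter on low signals. Lce1 genes are close copies of one another, so their probe sets may share signal and the members do not count as separate observations. In the plot of Lce genes both groups keep their order from gene to gene.

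**Figure D2:**
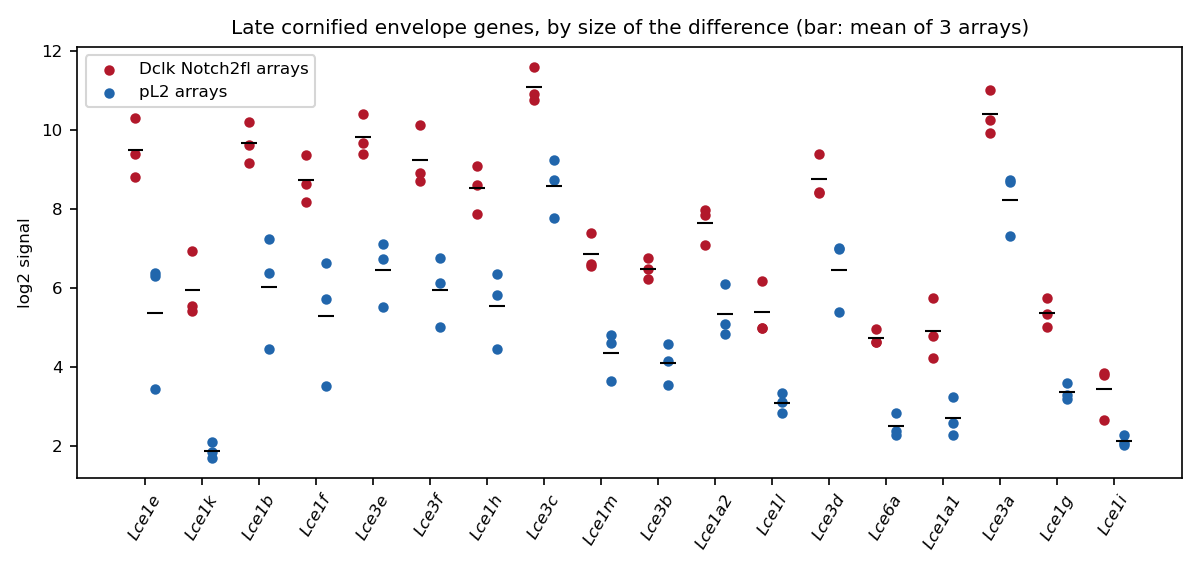
Log2 signal (y axis) of the 18 measured late cornified envelope genes (x axis, by size of the difference), with red points for the 3 Dclk Notch2fl arrays, blue points for the 3 pL2 arrays and bars for means. In every gene the red points lie above the blue points, from Lce1e at 4.12 down to Lce1i, which was not tested.

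The promoters of 4 called Lce1 genes are shown because these genes moved together, beside that of Pdx1, the called gene with the smallest adjusted p. RefSeq sequences of build GRCm38.p6 are given 5′ to 3′ on the strand of the gene, with 250 bases before the start and 50 after it. Lce1k lies at chr3:92807842-92808141, Lce1l at chr3:92851237-92851536, Lce1m at chr3:93019012-93019311 and Lce1g at chr3:92752289-92752588, all on the minus strand, and Pdx1 at chr5:147269847-147270146 on the plus strand. Capitals mark TGGGAA or its reverse TTCCCA, the core of the Rbpj site, and ATAAAA or its reverse TTTTAT, a form of the TATA box, searched on both strands. The second motif was picked after the sequences had been read.
Lce1k: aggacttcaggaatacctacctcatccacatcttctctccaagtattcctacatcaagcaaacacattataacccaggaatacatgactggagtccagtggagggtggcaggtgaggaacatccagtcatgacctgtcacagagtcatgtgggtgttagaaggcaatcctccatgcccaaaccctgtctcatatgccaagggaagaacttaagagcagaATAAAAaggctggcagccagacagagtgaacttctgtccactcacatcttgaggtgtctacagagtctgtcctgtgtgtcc
Lce1l: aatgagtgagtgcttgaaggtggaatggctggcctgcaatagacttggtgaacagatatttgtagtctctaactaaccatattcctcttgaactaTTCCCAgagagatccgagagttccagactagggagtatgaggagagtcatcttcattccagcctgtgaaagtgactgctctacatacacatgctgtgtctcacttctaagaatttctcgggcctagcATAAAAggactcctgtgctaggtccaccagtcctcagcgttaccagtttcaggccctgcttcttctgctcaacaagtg
Lce1m: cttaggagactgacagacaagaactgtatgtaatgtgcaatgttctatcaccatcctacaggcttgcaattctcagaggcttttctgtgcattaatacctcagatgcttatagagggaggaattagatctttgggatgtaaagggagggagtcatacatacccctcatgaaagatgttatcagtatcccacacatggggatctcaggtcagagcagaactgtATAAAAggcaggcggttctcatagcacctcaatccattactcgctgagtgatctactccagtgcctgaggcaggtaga
Lce1g: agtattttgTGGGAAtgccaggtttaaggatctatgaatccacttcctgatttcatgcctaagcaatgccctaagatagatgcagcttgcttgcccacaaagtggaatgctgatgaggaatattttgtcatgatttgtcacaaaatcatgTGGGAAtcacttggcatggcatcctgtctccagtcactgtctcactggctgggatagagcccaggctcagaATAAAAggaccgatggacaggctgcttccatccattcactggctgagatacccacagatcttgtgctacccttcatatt
Pdx1: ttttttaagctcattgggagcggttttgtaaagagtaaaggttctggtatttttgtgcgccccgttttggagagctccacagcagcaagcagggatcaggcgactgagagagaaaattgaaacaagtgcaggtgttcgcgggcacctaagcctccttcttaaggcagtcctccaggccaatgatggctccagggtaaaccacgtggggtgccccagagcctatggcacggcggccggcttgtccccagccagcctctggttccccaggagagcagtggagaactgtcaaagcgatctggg

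All 4 Lce1 promoters hold ATAAAA, beginning 31 bases before the start in Lce1k, 28 in Lce1l and Lce1m and 29 in Lce1g. Of 32851 mouse promoters of this length in the table, 18.5% hold ATAAAA or TTTTAT, and 4.02% within the last 50 bases before the start. The Rbpj core occurs once in Lce1l and in 2 copies in Lce1g, and neither motif was found in the Pdx1 window. It occurs in 25.6% of those promoters. None of the marked bases belonged to both motifs. Aligned over their whole length, the Lce1 promoters were 51.9% to 59.3% identical with one another and 47.7% to 50.6% identical with that of Pdx1.

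Other cornification genes divided by family. Sprr4, a small proline-rich envelope protein, had 7.32, 5.35 and 6.12 in Dclk Notch2fl, against 3.81, 4.33 and 3.92 in pL2. Replicate 1 was the highest, all 3 lay above pL2, and the gene rose by 2.25 ± 0.40 (limma adjusted p = 0.00556). It was the only one of 12 tested Sprr genes called, and the family median was 0.20. Differences ran as low as -1.15 in Sprr2h, which did not pass. Among 5 tested fused S100 genes, which bind keratin in cornifying cells, Flg2 rose by 1.57 ± 0.36 (limma adjusted p = 0.0436) and the median was 1.57. Flg, encoding filaggrin, had 10.53, 9.93 and 9.60 in Dclk Notch2fl, against 8.43, 7.76 and 6.07 in pL2. Its groups did not overlap, and its difference of 2.60 ± 1.14 did not pass (limma adjusted p = 0.316).

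Among 8 tested type II keratins of squamous cells Krt76, a keratin of cornifying oral epithelium, was the 1 called. It had 5.18, 4.63 and 4.20 in Dclk Notch2fl, against 2.73, 3.46 and 2.68 in pL2, and rose by 1.71 ± 0.38 (limma adjusted p = 0.0368). Its groups did not overlap. Krt78 was at 1.95 ± 0.92 and Krt4, of the suprabasal oesophageal layers, at 1.16 ± 0.61, neither of them called. The keratins Krt6a (-0.67 ± 0.54) and Krt6b (-0.39 ± 0.53), which rise in stressed or wounded skin, had negative differences that did not pass. Broader squamous lists held no called gene, with a median of 0.36 over 30 suprabasal genes and -0.11 over 11 basal genes. The suprabasal mean was 10.68, 10.34 and 10.19 in Dclk Notch2fl, against 10.06, 10.02 and 9.91 in pL2, without overlap. The part of this shift in the Lce differences was not tested. Dclk Notch2fl overlapped with the Freising pL2 mice (10.34, 9.93 and 10.62). It also overlapped with the lines Dclk Notch1fl (10.25, 10.58 and 10.67) and Lgr5 Notch2fl (10.10, 9.46 and 10.66), described below. With squamous and skeletal muscle means as covariates 54 genes were called, 37 of them among the 39. The squamous mean was that of the 30 suprabasal genes, which include cornification genes such as Flg. This refit therefore cannot separate the Lce differences from the squamous shift.

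These levels were set against the other groups. Choosing genes by the difference between Dclk Notch2fl and pL2 favours ranks of these groups near the ends. Ranks of called genes, here and below, are therefore descriptive only. Dclk Notch2fl had the highest mean of Lce1k among the 16 groups at 5.96, next to WT mice from Freising at 5.82 on high fat diet and 5.60 on chow. The pL2 group lay at 1.88, the 15th of 16, and the Freising pL2 mice on chow had 4.71, 2.53 and 5.57. Against these, the difference of Lce1k was 1.69 and did not pass. Sprr4 had 3.70, 4.57 and 4.23 in the Freising pL2 mice, all below Dclk Notch2fl, and there the difference of 2.10 passed.

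Lyg1, a goose-type lysozyme gene, had 6.76, 6.71 and 6.12 in Dclk Notch2fl, against 3.34, 2.46 and 2.72 in pL2. It rose by 3.69 ± 0.64 (limma adjusted p = 0.00507), and Dclk Notch2fl had the highest mean of the 16 groups. Il12rb2, a subunit of the interleukin-12 receptor, had 7.11, 7.28 and 6.20 in Dclk Notch2fl, against 4.24, 3.73 and 4.06 in pL2, and rose by 2.85 ± 0.57 (limma adjusted p = 0.0170). Its lowest Dclk Notch2fl array was well above the highest pL2 array. No T or NK cell gene was called among 9 tested, with a median of 0.17. Against Freising pL2 mice neither gene passed, with differences of 2.43 for Lyg1 and 1.20 for Il12rb2.

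Apcdd1, a membrane protein that inhibits Wnt signalling, had 7.75, 9.08 and 8.15 in Dclk Notch2fl, against 7.32, 6.35 and 6.05 in pL2. Replicate 2 was the highest and pL2 replicate 1 came near the others, with a difference of 1.76 ± 0.28 (limma adjusted p = 0.00184). Neto2, a partner of kainate-type glutamate receptors, had 5.97, 5.81 and 5.28 in Dclk Notch2fl, against 4.78, 4.05 and 4.18 in pL2, at 1.35 ± 0.21 (limma adjusted p = 0.00184). For both genes pL2 had the lowest and Dclk Notch2fl the highest mean of the 16 groups. With the Freising pL2 mice in place of pL2, differences were 0.50 for Apcdd1 and 0.02 for Neto2, and neither passed. Of 18 Wnt and BMP genes none was called, and their median was 0.36. Without pL2 replicate 1, 2 of them were called, and without Dclk Notch2fl replicate 1, 1 was. Over all genes these refits called 240 and 10.

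Further increases were in Aif1l, an actin-binding protein (2.23 ± 0.49), Spink14, a protease inhibitor of the Kazal type (2.07 ± 0.44), and Vgll3, a cofactor of Tead factors (3.99-fold). Smaller ones were in Zfyve9, which anchors Smad proteins at endosomes (0.74 ± 0.16), Cers5, a ceramide synthase (0.81 ± 0.15), Rab15, a small GTPase (0.85 ± 0.18), Trmt112, a partner of methyltransferases (0.85 ± 0.16), and Pbrm1, a chromatin remodelling subunit (0.55 ± 0.11). Rab15 had 7.990, 7.881 and 7.927 in Dclk Notch2fl, against 7.066, 6.999 and 7.168 in pL2. Both groups were tight in that gene, and the gap between them was larger than either spread. Against the Freising pL2 mice the signs of Trmt112 and Pbrm1 turned, at -0.10 and -0.006. There Spink14 was at 0.05, Aif1l at 0.81, Vgll3 at 1.52, Rab15 at 0.13, Cers5 at 0.25 and Zfyve9 at 0.21, and none of these passed. Second probe sets of Aif1l and Zfyve9, with lower signals, gave 0.03 and 0.25 against pL2.

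**Figure D3:**
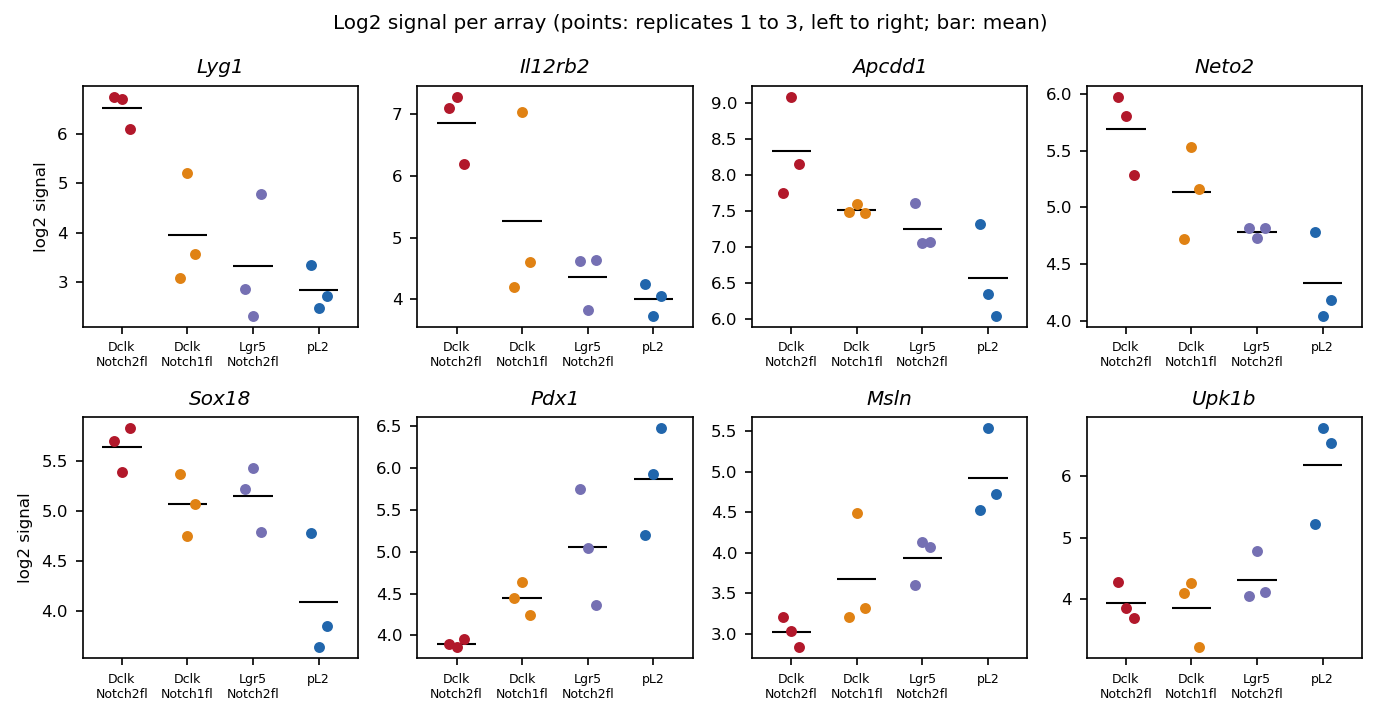
Log2 signal (y axis, a scale of its own in each panel) of 8 called genes in the 3 arrays of Dclk Notch2fl, Dclk Notch1fl, Lgr5 Notch2fl and pL2, with bars for means. In the top row and Sox18 the Dclk Notch2fl arrays lie above pL2, in Pdx1, Msln and Upk1b below, and the other Notch lines mostly lie between them. Genes chosen for a difference between Dclk Notch2fl and pL2 tend to show this.

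Sox18, a transcription factor of vessel endothelium, had 5.70, 5.39 and 5.82 in Dclk Notch2fl, against 4.77, 3.64 and 3.85 in pL2. It rose by 1.55 ± 0.28 (limma adjusted p = 0.00624) and was the 1 gene called among 17 endothelial markers. The median of these markers was 0.78, with 16 positive differences and 15 at an unadjusted p below 0.05. Of all 15242 genes tested, 1980 had such a p. Their mean was 5.93, 5.96 and 6.03 in Dclk Notch2fl, against 5.95, 4.69 and 4.81 in pL2. The Dclk Notch2fl arrays were close together, pL2 replicate 1 was level with them, and pL2 replicates 2 and 3 lay about a unit below. pL2 had the lowest endothelial mean of the 16 groups, where the other 14 spanned 5.71 to 6.67, and Dclk Notch2fl was the 7th from the lowest. Without pL2 replicate 1, 14 endothelial genes were called, beside 240 over all genes, and the median was 1.29. Without pL2 replicate 2 or 3 none was called, with medians of 0.55 and 0.60. With the Freising pL2 mice the difference of Sox18 was 0.10 and did not pass.

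Pdx1, a transcription factor that the pancreas, the duodenum and the antrum of the stomach need, was the lower gene with the smallest adjusted p. It had 3.89, 3.86 and 3.96 in Dclk Notch2fl, against 5.20, 5.94 and 6.47 in pL2. The Dclk Notch2fl arrays were nearly equal and far below pL2, and the gene fell by 1.97 ± 0.29 (limma adjusted p = 0.000810). All 3 Dclk Notch2fl arrays lay under the lowest array median of 4.03, so these signals may not be above background. Plut, a non-coding RNA transcribed beside Pdx1, had 3.47, 3.13 and 3.17 in Dclk Notch2fl, against 4.35, 5.60 and 4.88 in pL2, and fell by 1.68 ± 0.38 (limma adjusted p = 0.0406). The Dclk Notch2fl signals of Plut lay under that median too. pL2 had the highest Pdx1 mean of the 16 groups, and WT mice from the same facility had 3.97, 3.67 and 3.82. The Freising pL2 mice had 4.23, 4.35 and 4.43, and against them the difference of -0.44 did not pass.

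None of the other 14 foregut and gastric factors tested was called. Onecut2, a factor of liver, pancreas and gut, had 5.05, 5.52 and 5.51 in Dclk Notch2fl, against 6.89, 7.01 and 6.92 in pL2. The groups were clearly apart, with a difference of -1.58 ± 0.44 (limma adjusted p = 0.112). Foxa1 was at -0.82 ± 0.32, and Sox2, a factor of the squamous and stomach lining, at 0.47 ± 0.26. The list median was -0.01.

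Msln, encoding mesothelin, which mesothelium and some epithelial cells make, had 3.21, 3.03 and 2.83 in Dclk Notch2fl, against 4.53, 5.54 and 4.72 in pL2. It fell by 1.91 ± 0.38 (limma adjusted p = 0.0162), and Dclk Notch2fl had the lowest mean of the 16 groups. Its Dclk Notch2fl signals lay under the lowest array median of 4.03. Upk1b, a uroplakin of the tetraspanin family, had 4.28, 3.86 and 3.69 in Dclk Notch2fl, against 5.23, 6.78 and 6.55 in pL2. It fell by 2.24 ± 0.49 (limma adjusted p = 0.0336), and pL2 had the highest mean of all groups. These were the 2 called among 10 tested mesothelial and uroplakin genes, whose median was -0.88. Against the Freising pL2 mice Upk1b was at -0.12 and Msln at -0.52, and neither passed. WT mice from MRI came next to pL2 in Upk1b, at 6.12 beside 6.19, followed by FXR mice at 5.49. In Msln the WT mice from MRI were highest at 5.90, before pL2 at 4.93 and FXR mice at 4.49. These groups share the title series of pL2, as does pL2_FXR, which had 4.72 for Upk1b and 3.73 for Msln. None of the list was called without any 1 of the Dclk Notch2fl arrays or without pL2 replicate 2. Without pL2 replicate 1, 3 were called, beside 240 over all genes, and without pL2 replicate 3, 1 was, beside 14. Wt1, a factor of mesothelium, was at -0.72 ± 0.19 (limma adjusted p = 0.0901), with 3.79, 3.81 and 3.89 in Dclk Notch2fl, against 4.73, 4.46 and 4.46 in pL2. The list mean was 4.45, 3.99 and 4.01 in Dclk Notch2fl, against 4.63, 5.18 and 4.89 in pL2, without overlap.

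Other decreases were in Phgr1, a gene of the gut lining (-1.61 ± 0.35), Ceacam12, of the carcinoembryonic antigen family (-1.43 ± 0.31), Itga7, a laminin-binding integrin (-1.26 ± 0.29), and Rilpl2, an effector of Rab proteins (-1.21 ± 0.26). Ero1a, an oxidase that forms disulfides in the endoplasmic reticulum, had 9.37, 9.43 and 9.80 in Dclk Notch2fl, against 9.97, 10.88 and 10.91 in pL2, and fell by 1.05 ± 0.24. Epb41l4aos was at -1.04 ± 0.21, and Micall2, of cell junctions, at -0.92 ± 0.20. In Rilpl2 and Phgr1 the sign turned with the Freising pL2 mice, at 0.15 and 0.08. There Ceacam12 was at -0.12, Itga7 at -0.48, Ero1a at -0.20, Micall2 at -0.36 and Epb41l4aos at -0.75, and none of these passed. Second probe sets of Phgr1 and Ero1a, with lower signals, gave -0.58 and -1.26 against pL2.

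Most genes of the interleukin-1 and neutrophil lists had negative differences, and none passed. Of 23 tested genes of interleukin-1 and NF-kB signalling, 20 were negative and 11 had an unadjusted p below 0.05, with a median of -0.74. Of all 15242 genes tested, 1980 had such a p. Il1b had 6.23, 7.23 and 5.88 in Dclk Notch2fl, against 7.17, 7.25 and 8.88 in pL2, and the groups overlapped at -1.32 ± 0.65 (limma adjusted p = 0.383). Lcn2, an iron-binding defence protein, had 7.42, 8.04 and 8.61 in Dclk Notch2fl, against 9.15, 9.65 and 10.05 in pL2. Those groups did not overlap, at -1.59 ± 0.47 (limma adjusted p = 0.132). Of 13 neutrophil genes none was called, and the median was -1.16, as in S100a9, a subunit of calprotectin. Without pL2 replicate 1, 1 of them was called, beside 240 over all genes. Ly6g, a surface marker of neutrophils, was at -2.08 ± 0.59 (limma adjusted p = 0.112). Neutrophil means were 5.68, 5.97 and 5.59 in Dclk Notch2fl, against 6.02, 6.47 and 7.31 in pL2. Against the Freising pL2 mice the sign of Il1b turned, at 0.80. The interleukin-1 and NF-kB list had means of 5.41, 5.96 and 5.63 in Dclk Notch2fl, against 5.95, 6.40 and 6.77 in pL2. In the Freising pL2 mice it had 5.47, 5.67 and 5.48, and the neutrophil list 5.32, 5.47 and 5.59. Other immune lists went both ways, with no call. The median was -0.53 over 19 interferon response genes, 0.55 over 7 MHC class II genes and 0.29 over 11 macrophage genes.

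**Figure D4:**
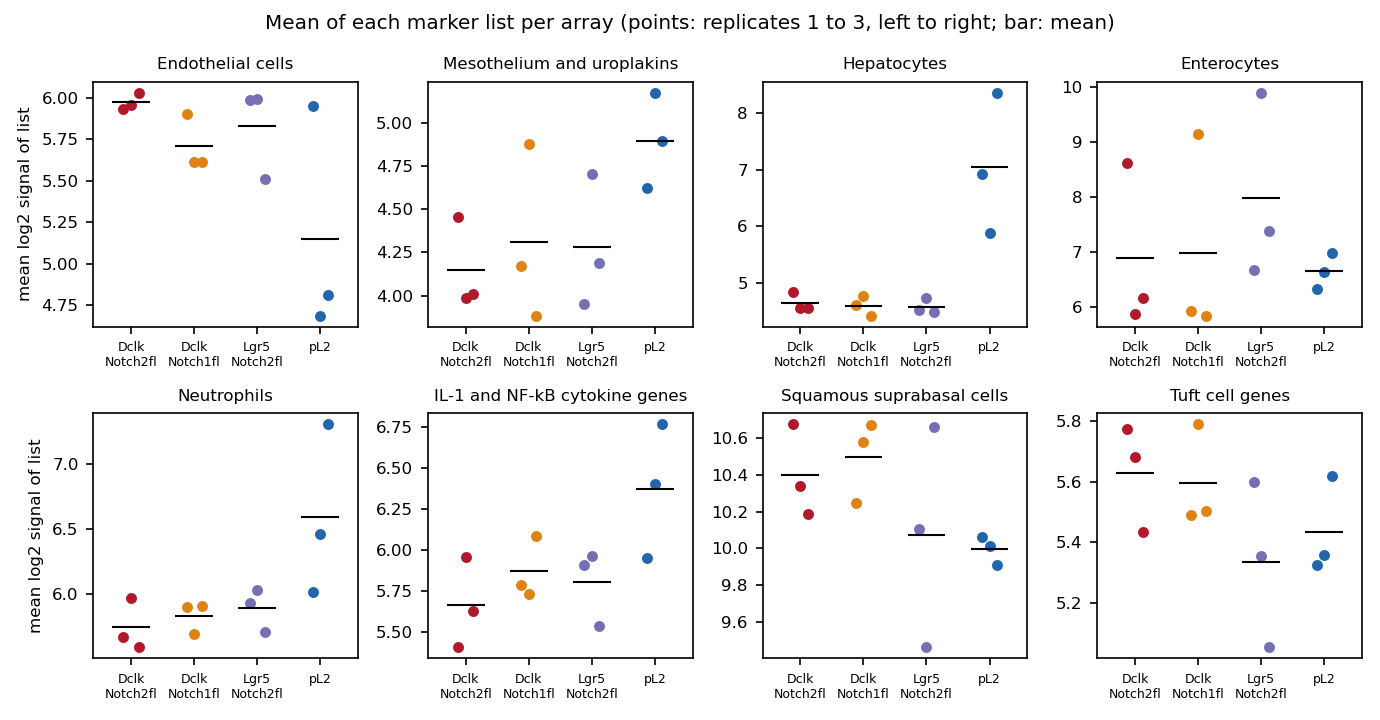
Mean log2 signal (y axis, a scale of its own in each panel) of the genes of 8 lists in each array of Dclk Notch2fl, Dclk Notch1fl, Lgr5 Notch2fl and pL2, with bars for group means. Among these 12 arrays hepatocyte genes are high in the 3 pL2 arrays, and the endothelial mean is low in pL2 replicates 2 and 3.

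Chromosome 3, where Notch2 and Dclk1 both lie, held 10 of the 39 calls, or 1.30% of its 770 tested genes, against 0.256% of all genes. Genes were placed by symbol, since positions of the probes are not known here, and Tpm3 was set apart for the reason given below. Of these 10, 7 belonged to the cluster of cornification genes named above (5 Lce genes, Sprr4 and Flg2), and the others were Car13, Pglyrp4 and 5830417I10Rik. In gene order, all lay on one side of Notch2, with Flg2 the nearest, 251 genes away, and Car13 the farthest, 1421 away. None of 43 tested genes among the 100 on each side of Notch2 was called, and 7 of 229 (3.06%) among the 300 on each side were, the cornification genes.

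The probe set used for Tpm3, a tropomyosin that winds along actin filaments, had 9.66, 9.54 and 9.75 in Dclk Notch2fl, against 7.98, 8.27 and 8.59 in pL2. The Dclk Notch2fl arrays were tightly together and a full unit above pL2, and the difference was 1.37 ± 0.24, or 2.59-fold (limma adjusted p = 0.00507). By symbol Tpm3 lies on chromosome 3, yet of the 20 probe sets numbered next to this one, 19 are named for genes of chromosome 14 and 0 for genes of chromosome 3. It stands in that order between Slitrk5 and Gpc5, and RefSeq places Tpm3-rs7, a pseudogene of Tpm3, between these genes on chromosome 14. The second Tpm3 probe set, whose 20 neighbours are all named for genes of chromosome 3, had lower signals and gave -0.19, and the mean of both gave 0.59 and did not pass. The value of 1.37 is therefore reported for that probe set and not as a change of Tpm3. Car13, a carbonic anhydrase, rose by 0.92 ± 0.21. Pglyrp4, which binds bacterial peptidoglycan, had 5.19, 5.87 and 5.25 in Dclk Notch2fl, against 6.78, 7.94 and 8.29 in pL2, and fell by 2.23 ± 0.50 (limma adjusted p = 0.0398). The RIKEN gene 5830417I10Rik had 4.89, 5.67 and 4.37 in Dclk Notch2fl, against 6.17, 6.14 and 6.38 in pL2, and fell by 1.26 ± 0.25 (limma adjusted p = 0.0169).

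Dclk Notch2fl was then set against the 2 lines most like it, which also carried pL2, came from MRI and had received tamoxifen. Dclk Notch1fl (genotype pL2_Dclk_Notch1fl_fl, 3 mice) differs in the floxed receptor, and Lgr5 Notch2fl (pL2_Lgr5_Notch2fl_fl, 3 mice) in the driver, that of the stem cell marker Lgr5. Dclk Notch1fl mice were 11, 12 and 13 months old with tamoxifen at 5, 6 and 6 months. Lgr5 Notch2fl mice were 10, 11 and 11 months old with tamoxifen at 4, 5 and 4 months. Xist was 11.86, 11.30 and 8.75 in Dclk Notch1fl and 4.18, 11.93 and 11.95 in Lgr5 Notch2fl. Eif2s3y was high in Dclk Notch1fl replicate 3 (8.50), which stayed among the arrays with high Xist, and in Lgr5 Notch2fl replicate 1 (8.99). Enterocyte means were 5.93, 9.15 and 5.85 in Dclk Notch1fl and 6.67, 9.89 and 7.38 in Lgr5 Notch2fl. The part of these differences was not tested beyond the refits. Both comparisons and that with pL2 share the Dclk Notch2fl arrays, so their results are not independent. Against Dclk Notch1fl 1 gene was called (0.00656% of genes tested), with 388 at an unadjusted p below 0.05. Against Lgr5 Notch2fl 3 were called (0.0197%), 2 of them higher (0.0131%) and 1 lower (0.00656%), with 699 at an unadjusted p below 0.05.

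What was called against Dclk Notch1fl was the same Tpm3 probe set, with 9.66, 9.54 and 9.75 in Dclk Notch2fl and 8.15, 7.91 and 8.64 in Dclk Notch1fl, at 1.41 ± 0.24 (limma adjusted p = 0.0120). With 1 array left out this difference ran over 1.25 to 1.62, and it did not pass in 4 of 6 such refits. Lgr5 Notch2fl had 9.96, 9.84 and 9.90, and Dclk Notch2fl was not called different from it at -0.25. The means of the other 14 groups lay between 7.72 and 8.36, and every one of the 6 arrays with floxed Notch2 was above them. Pglyrp4 was at -2.16 against Dclk Notch1fl and at -0.60 against Lgr5 Notch2fl, and neither passed. 5830417I10Rik was at -1.31 against Dclk Notch1fl (limma adjusted p = 0.0603) and at 0.40 against Lgr5 Notch2fl, whose arrays had 5.18, 4.26 and 4.30.

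**Figure D5:**
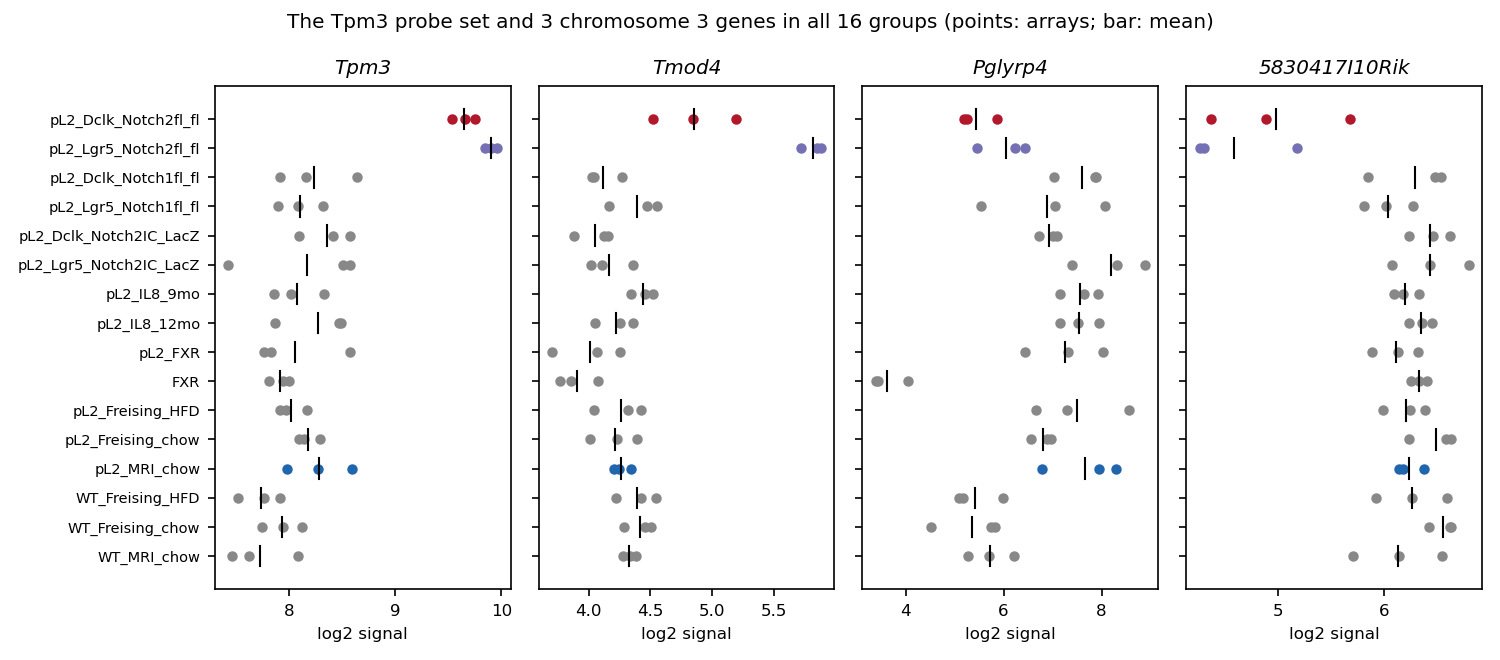
Log2 signal (x axis, a scale of its own in each panel) of the Tpm3 probe set and 3 chromosome 3 genes in all 48 arrays, with 1 row per group of 3 and bars for means; Dclk Notch2fl is red, Lgr5 Notch2fl purple and pL2 blue. The Tpm3 probe set lies near 9.65 and 9.90 in the lines with floxed Notch2 and at most at 8.64 in the other 42 arrays, and 5830417I10Rik is lower in both lines than in the other groups.

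Against Lgr5 Notch2fl, Tmod4, a tropomodulin that caps actin filaments and lies 167 genes from Notch2, was lower. It had 4.52, 4.85 and 5.19 in Dclk Notch2fl and 5.72, 5.85 and 5.88 in Lgr5 Notch2fl, at -0.96 ± 0.15 (limma adjusted p = 0.00300). The pL2 arrays had 4.25, 4.34 and 4.20, all below Dclk Notch2fl, at a difference of 0.59 ± 0.15 (limma adjusted p = 0.0843). The other 2 genes were higher than in Lgr5 Notch2fl and lie on chromosome 11. Lyrm7, which takes part in the assembly of a respiratory complex, had 5.56, 5.22 and 4.95 in Dclk Notch2fl, against 3.77, 3.93 and 3.81 in Lgr5 Notch2fl, and 2610507I01Rik had 6.54, 6.23 and 6.14, against 4.67, 4.50 and 4.68. Lgr5 Notch2fl was the low group in both, since Lyrm7 had 5.69, 5.21 and 5.58 and 2610507I01Rik 6.78, 6.87 and 6.64 in pL2.

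For the genes called against pL2, the other lines mostly took values between. Choosing genes by a large difference between Dclk Notch2fl and pL2 favours such values, so they are no result about the lines. Lce1k was at 1.42 against Dclk Notch1fl, whose arrays had 3.17, 4.88 and 5.56, and at 2.62 against Lgr5 Notch2fl, whose arrays had 4.08, 2.06 and 3.88. The Lce family median was 1.06 against Dclk Notch1fl and 1.77 against Lgr5 Notch2fl. Pdx1 was at -0.54 against Dclk Notch1fl and at -1.15 against Lgr5 Notch2fl, and Lyg1 at 2.57 and 3.21 in the same order of lines. None of these passed. Rab15 and Trmt112 differed little from both lines, with Rab15 at 0.00 and 0.01 and Trmt112 at 0.11 in each, beside 0.85 for both genes against pL2. Endothelial markers had medians of 0.28 against Dclk Notch1fl and 0.17 against Lgr5 Notch2fl, beside 0.78 against pL2.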

How the data were processed

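Affymetrix arrays of total RNA, 1 per sample, were deposited as log2 signals per probe set, made by the authors by RMA in Affymetrix Expression Console, per the submitters' processing notes; versions were not given, and a genome build is not given in the sources used here. RMA pulls array distributions together, so a shift of all genes would not be seen. Groups came from the labels, 16 of 3 arrays, and replicate numbers follow sample order and pair nothing. The labels name no mouse, but ages differ among the Dclk Notch2fl samples, so samples are called mice, and p-values measure the spread between samples.

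Array medians lay between 4.03 and 4.27, correlations within the groups were 0.972 to 0.992, and no 2 arrays were identical. The number of arrays limits the precision.

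Of 34390 entries, 23521 carried 1 symbol, 1814 several and 9055 none; the highest mean over all arrays chose 1 probe set for each of 22180 symbols, 21994 of which matched RefSeq. A gene was tested if its signal exceeded the median of the array on 3 or more arrays, which kept 15242. One mean per group was fitted to 48 arrays with limma 3.58.1 in R 4.3.3 (lmFit, eBayes, two-sided, Benjamini-Hochberg over all genes of a comparison). Gene lists were only counted. The fit was tested on simulated data with independent noise for each gene and array. These held no sex-linked or tissue differences between arrays, so the test does not cover such differences. Genes named are 14 set genes, the 15 largest increases and decreases called, the 5 largest in each other comparison, without RIKEN entries, and called list members, up to 6 a list. Others named (RIKEN genes, families, smaller changes, list members not called) were chosen after their values were seen. Members and lists were chosen with earlier results of these data known. Motifs and alignments were made in Python 3.11.15 with Biopython 1.88, and 28 of the 39 called genes had a promoter entry. Alternatives were filters, probe set means, other controls, covariates (age, a sex-linked score, tissue means), weights, cyclic loess and each array left out.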

Additional observations from a re-analysis of the deposited data

Results flagged for a closer look

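Dclk Notch2fl and Lgr5 Notch2fl carry the same floxed receptor with different drivers, and the test of the difference between them passed for 3 genes. These were 2610507I01Rik at 1.69, Lyrm7 at 1.41 and Tmod4 at -0.96, all as Dclk Notch2fl minus Lgr5 Notch2fl on the log2 scale. Without Dclk Notch2fl replicate 1 none of the 3 was called.

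Probe sets with no gene symbol or with several were outside the report's comparison. Of 10869 such entries 4875 passed the filter, and 29 were called between Dclk Notch2fl and pL2, 25 of them higher. Many repeat 1 signal: the 29 held 13 different profiles over the 48 arrays (9 higher, 4 lower), and 12 unnamed entries shared the same values on every array. The largest difference, 4.59, belonged to an entry for both Lce1d and Lce1k.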

How the results depend on the processing

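Fitted to all arrays, 39 genes were called between Dclk Notch2fl and pL2. This count became 4627 with array weights, whose estimation stopped before converging and which gave pL2 replicate 2 a weight of 5.72; 3 against the Freising pL2 mice; 4 against the mean of both pL2 groups; 0 among arrays with Xist above the Y-linked mean, chosen after seeing the data; 1 in the compared groups alone; and 10 without arrays high in liver or intestinal transcripts. With 1 array left out it ran over 6 to 240. No filter gave 31, a stricter filter 26, probe set means 34, cyclic loess 42, an age covariate 39, a sex-linked covariate 28 and trended robust moderation 39; the share of higher genes was 66.7% as reported, 84.6% with age, 89.3% with the sex-linked covariate and 51.9% with weights. Against Dclk Notch1fl the count of 1 became 13 with weights, 2 with cyclic loess, with tissue covariates, with the stricter filter and without the liver or intestinal arrays, and 0 with probe set means, with high Xist and in the compared groups alone; leaving out an array gave 0 to 2. Against Lgr5 Notch2fl the count of 3 became 34 with weights, 1 with high Xist and 0 in the compared groups alone and without the liver or intestinal arrays; leaving out an array gave 0 to 8. Dclk1 passed with weights at 0.78 and ran over 0.29 to 0.68 with an array left out. Notch2 turned to -0.053 with high Xist and -0.02 with tissue covariates, and ran over 0.05 to 0.22.

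Signs that turned against the Freising pL2 mice were those of Hes1 (-0.10), Hey1 (-0.44; -0.12 against both groups' mean; -0.012 with age), Il1b (0.80), Pbrm1 (-0.006), Phgr1 (0.077), Rilpl2 (0.15) and Trmt112 (-0.10). Heyl turned to -0.30 with high Xist, -0.21 without the liver or intestinal arrays, -0.077 without Dclk Notch2fl replicate 1 and -0.048 without pL2 replicate 3, and reached 0.273 with 1 array left out. Without pL2 replicate 1, Hes1 was -0.001 and Trpm5 -0.003, and their highest values with 1 array left out were 0.217 and 0.429. The causes were not tested. Of the 39 genes, the Tpm3 probe set was called in 17 of 20 alternatives, Apcdd1 and Sprr4 in 16, Pdx1 and Neto2 in 15, and Itga7 in 4. No paired analysis was possible because the labels give the groups no shared replicate numbers.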
